A study of Mus musculus with 25 samples.

Results

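The late response to spinal cord injury (SCI) after deletion of *Rest* was measured in libraries of REST cKO cells, sorted as neurons of the sensorimotor cortex, at day 7 after SCI against those after sham surgery. The members were chosen by the sample labels, as the libraries of the REST cKO genotype with SCI and 7 days of recovery and those of the same genotype with sham surgery. This gave 6 of the 25 libraries of the series, 3 in each group. All 9931 genes with a symbol, of 9955 rows, were described.

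The study deleted *Rest* from cortical neurons and followed their transcriptome after injury. Both compared groups were male mice of the C57BL/6 strain by the labels, homozygous for a floxed *Rest* allele (REST flx/flx) and carrying a TdTomato reporter behind a floxed STOP cassette. All received AAV-Syn-Cre in the sensorimotor cortex, and the methods give an age of 4 to 6 weeks for young adult mice of both sexes. The day 7 group had an anatomically complete crush of the cord at T10 and 7 days of recovery, whereas the control group had sham surgery. WT mice, used for comparison, carried the same alleles and received AAV-Syn-GFP. Of these the 3 mice at day 7 were female and the 4 sham mice of both sexes. REST cKO mice at day 3 after the same injury, used for some descriptions, were 3 female and 1 male. Cre was driven by the synapsin promoter, which acts in neurons of every class and not only in those that project to the cord, and the injury severed only the axons of the latter. About 1000 cells per library were sorted. The methods give the gate as live GFP-positive cells, while the study's results text and the labels of these 6 libraries name tdTomato for REST cKO. Each library carries its own replicate number, and the sources used here do not say which mouse it came from.

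REST is a zinc finger repressor that binds RE1 elements near neuronal genes and recruits the corepressors CoREST and Sin3 with their histone deacetylases and demethylases. It silences genes of synapses, ion channels and the axonal cytoskeleton outside neurons and dampens some of them in mature neurons under stress. Corticospinal neurons are layer 5 pyramidal cells whose axons run through the brainstem to the spinal cord, and they do not regrow these axons after an injury. Neurons of the periphery, which do regrow theirs, switch on transcription factors such as *Jun*, *Atf3*, *Sox11*, *Stat3* and *Smad1* and growth cone proteins such as *Gap43*.

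The labels name the cells as cortical motor neurons, and the marker lists were read in each library first. All 10 pan-neuronal markers were measured, and their mean level, on the log scale of the deposited values, was 1.73, 1.06 and 1.13 at day 7 and 2.17, 1.62 and 2.37 in sham, in the order of replicates 2, 13 and 26 and of replicates 6, 18 and 23. The groups overlapped, since day 7 replicate 2 lay above sham replicate 18. *Syt1*, the calcium sensor of synaptic vesicles, was the most abundant of them, at 3.43, 3.34 and 2.84 at day 7 and 3.40, 2.93 and 3.09 in sham. Of the 12 deep-layer and corticospinal markers 8 were measured, with a mean level of -0.04, 1.10 and 0.71 at day 7 and 0.83, 0.21 and -0.06 in sham. *Fezf2* and *Crym*, which mark corticospinal neurons, and *Ldb2* and *Cntn6* were not among the genes of the table, and *Bcl11b*, the most abundant of those measured, was at 0.54, 0.35 and 1.87 at day 7 and -0.52, 1.64 and -1.01 in sham.

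Markers of other cells were abundant in the same libraries. The 16 microglial markers were all measured and had a mean level of 2.89, 2.98 and 3.07 at day 7 and 2.67, 2.84 and 2.89 in sham, above that of the neuronal markers in every library. The 3 libraries at day 7 lay above the 3 of sham, by a margin that is lost in rounding between day 7 replicate 2 and sham replicate 23. *Ctss*, a lysosomal protease of microglia and the most abundant of the list, was at 4.18, 4.69 and 4.32 at day 7 and 3.88, 3.85 and 4.24 in sham. Of the 16, 3 were higher at day 7 with an unadjusted p under 0.05 in limma's test, as were 3.54% of all genes (among them *Ctss*, with overlap between the groups, and *Tyrobp*, without), 0 were lower, and the median difference was 0.23. The list of 11 astrocyte markers lacked *Gfap*, *Aqp4* and *Aldh1l1*, and the other 8 had a mean level of 1.59, 1.83 and 1.38 at day 7 and 2.49, 2.13 and 1.68 in sham. *Slc1a3*, a glutamate transporter and the most abundant of the 8, was at 2.82, 2.37 and 3.08 at day 7 and 2.76, 2.26 and 2.55 in sham. Endothelial and mural markers (11 of 11 measured) stood at 2.34, 1.73 and 1.74 at day 7 and 2.47, 1.38 and 2.26 in sham, and *Flt1*, the most abundant, at 3.46, 2.67 and 2.82 at day 7 and 3.39, 2.64 and 3.08 in sham. Oligodendrocyte markers (10 of 12, without *Sox10* and *Pdgfra*) stood at 0.37, 0.85 and 0.18 at day 7 and -0.36, -0.22 and 0.34 in sham, and *Mbp*, their most abundant and a myelin protein, at 1.89, 1.55 and 1.25 at day 7 and 1.40, 2.79 and 1.41 in sham. The cells had been depleted of myelin before the sort. Blood markers (6 of 10) stood at 2.95, 1.47 and 2.09 at day 7 and 1.17, 1.02 and 2.57 in sham, and their most abundant member *Igha*, an immunoglobulin heavy chain, was at 3.31, 4.13 and 3.67 at day 7 and 3.50, 3.26 and 3.62 in sham. Excitatory markers (7 of 8) were at 1.36, 1.13 and 1.23 at day 7 and 1.95, 0.27 and 1.29 in sham, and *Nrgn*, the most abundant, at 2.45, 2.96 and 2.03 at day 7 and 2.76, 1.13 and 3.28 in sham. Inhibitory markers (6 of 10) were at -0.46, 0.75 and 0.31 at day 7 and 1.21, -0.07 and 0.55 in sham. Apart from the microglial list, each cell type list overlapped between the groups in its mean level. Reads of the kit used come from the 3′ end of transcripts, so levels were compared between genes without a correction for length. Fewer neurons in a library and less RNA per neuron cannot be told apart in such bulk samples. The part of these markers in the differences below was not tested.

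**Figure D1:**
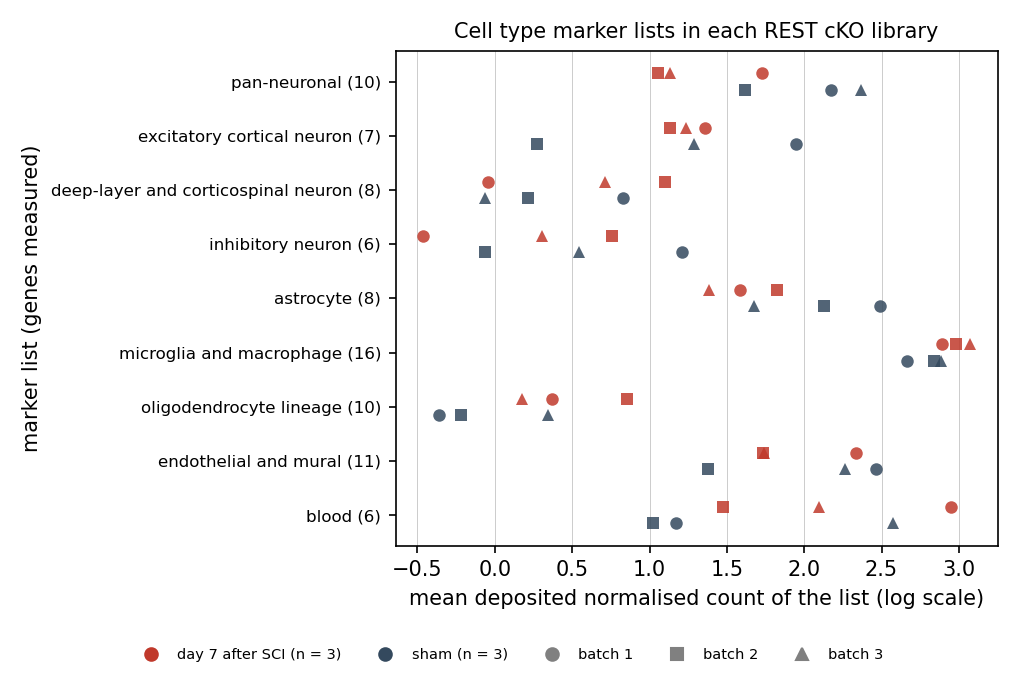
Mean deposited normalised count (log scale, x axis) of each cell type marker list (y axis, with the number of genes measured) in the 6 REST cKO libraries, red for day 7 after SCI and dark blue for sham, with a marker shape for each batch. The microglial list lies between 2.67 and 3.07 in all 6 libraries, above the pan-neuronal list, which lies between 1.06 and 2.37.

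The deposited values ran from -4.82 to 5.16. The study plots such values as log2 counts, but the table does not state the base, and a library sums to 21927 to 31113 if it is 2 and to 1047250 to 2762430 if it is 10. Differences are therefore given in units of the deposited log scale and not as folds. The study states an average read depth over its cortical libraries, but the table holds no counts, so depths of single libraries are unknown and precision was judged from the spread between libraries. The share of values under -2, at the low end of the scale, was 10.7%, 8.84% and 2.77% in day 7 replicates 2, 13 and 26, and 8.93%, 8.07% and 5.04% in sham replicates 6, 18 and 23. By the labels, batches 1, 2 and 3 each hold 1 library of both groups, namely day 7 replicate 2 with sham replicate 6, replicate 13 with 18, and replicate 26 with 23. Differences could thus be taken within each batch. The first component of the sequencing metrics, as the labels give it, was lower at day 7 in every batch, at -5.86 against -2.62, 7.17 against 15.69 and -5.80 against 10.45. It was a term of the model together with the second component.

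No gene passed the threshold at day 7. By limma's moderated test on all 25 libraries, 0 of 9931 genes (0%) had an adjusted p under 0.1, and the smallest adjusted p was 0.232. Without adjustment, 352 genes were higher (3.54%) and 211 lower (2.12%) with p under 0.05, together 5.67%. The 3 libraries at day 7 lay above the 3 of sham in 585 genes (5.89%) and below them in 478 (4.81%). Together these were 10.7% of genes, and 10% of all splits into 3 against 3 do not overlap. A lack of overlap in a gene is thus a description of its values and not evidence of a response. Within batches, 1073 genes were higher in every batch (10.8%) and 1260 lower in every batch (12.7%). The median difference over all genes was 0.07, and 0.05, -0.05 and -0.11 in batches 1, 2 and 3. With each library centred on its median it was -0.05, a shift of over 0.1, and the share of higher genes among those with an unadjusted p under 0.05 was 50.1% instead of 62.5%. With quantile normalization the median was -0.02 and that share 52.1%. The count past the adjusted threshold moved with single libraries. It was 7 without sham replicate 23 (*Crybb1*, *Erh*, *Taf15*, *Gpr107*, *Cmc1*, *Myh10* and *Phf14*), 2 without day 7 replicate 13 (*Erh* and *Rpl3-ps1*) and 1 without sham replicate 18 (*N4bp2l2*), and 6 with a weight for each library. Precision depended on abundance, with a median standard error of 1.34 in the 3030 genes with a mean under 0 and 0.382 in the 1104 genes with a mean of 2 or more. P-values here measure the spread between libraries, and a p above the threshold does not show that a gene did not differ.

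*Rest* itself was at -1.21, -0.33 and -0.97 at day 7 and -2.65, -0.79 and -0.52 in sham. The groups overlapped, with a difference of 1.23 (standard error 0.982, adjusted p = 0.947 from limma), and within batches it was 1.44, 0.46 and -0.46. The fitted difference ran from 0.43 to 1.55 over the alternatives, lowest without sham replicate 6 and highest without sham replicate 23, and was 0.48 without the component terms. Mean levels of *Rest* with SD were -1.32 ± 1.16 in REST cKO sham and -0.69 ± 0.584 in WT sham, which overlapped, and -0.84 ± 0.458 and 1.77 ± 1.33 at day 7, without overlap. The difference in level between the genotypes was not tested. The 5 core regeneration TFs were measured in full, 0 passed the threshold, and 3 were higher without overlap, as were 5.89% of all genes. *Sox11*, an SRY-box factor of developing and regenerating neurons, was at 2.55, 0.18 and 0.51 at day 7 and -3.57, -0.49 and -2.29 in sham. Every day 7 library was above every sham library, and the difference was 3.01 (standard error 1.11, adjusted p = 0.840 from limma). It was 1.66 without sham replicate 6 and 3.67 without sham replicate 18. *Smad1*, which carries BMP signals to the nucleus, was at 0.72, 0.36 and 0.51 at day 7 and -1.42, -1.56 and -1.95 in sham. The groups did not overlap (difference 2.30, standard error 1.17, adjusted p = 0.886). *Atf3*, a stress-induced bZIP factor, was at 0.54, 1.75 and 1.36 at day 7 and -0.21, -1.04 and 0.20 in sham. Here too the libraries did not overlap (difference 1.61, standard error 1.05, adjusted p = 0.936). *Stat3*, the effector of gp130 cytokines, was at 3.00, 3.31 and 3.24 at day 7 and 2.50, 2.05 and 3.19 in sham, with overlap between day 7 and sham, and *Jun*, a subunit of AP-1, was at 3.53, 2.15 and 3.05 at day 7 and 2.80, 2.15 and 2.84 in sham, also with overlap. All 5 were higher at day 7 in every batch, as were 10.8% of all genes, *Jun* in batch 2 only beyond the decimals given. The fitted difference of *Jun* was -0.06 and turned to 0.32 without the component terms. In 140 of 9931 genes, among them all 5 TFs and *Rest*, the deposited values still tracked a component that had been regressed out of the table. The cut was a correlation above 1e-05. The shares over all genes beside the TFs come mostly from genes without such a correlation, so the 2 are not fully alike. The list's median difference was 1.61, against 0.07 over all genes, and ran from 0.41 to 1.92 over the alternatives. The lowest was among genes with a mean of at least 0, which *Smad1* and *Sox11* did not reach, and the highest without sham replicate 23.

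**Figure D2:**
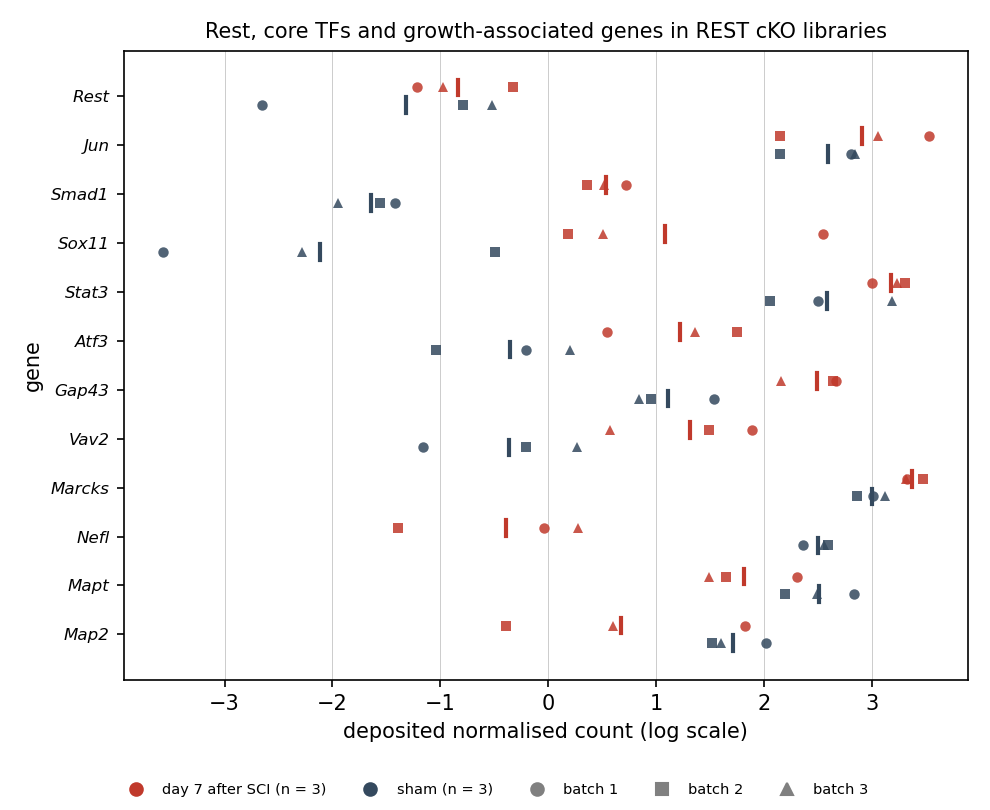
Deposited normalised count (log scale, x axis) of *Rest*, the core TFs and 6 growth-associated genes (y axis) in each REST cKO library, red for day 7 after SCI and dark blue for sham (n = 3 each), with a shape for each batch and a bar for the group mean. The libraries of *Smad1*, *Sox11*, *Atf3*, *Gap43*, *Vav2* and *Marcks* at day 7 lie above sham without overlap and those of *Nefl* lie below it.

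Of 40 growth-associated and cytoskeletal growth genes 36 were measured, and 0 passed the threshold. Without adjustment 3 were higher and 3 lower (3.54% and 2.12% over all genes). Their median difference was -0.15 (-0.27 to -0.03 over the alternatives), with 0.14, -0.04 and -0.48 within batches. The libraries did not overlap in 4 that were higher and 5 that were lower (5.89% and 4.81% over all genes). *Gap43*, the growth cone phosphoprotein, was at 2.67, 2.64 and 2.16 at day 7 and 1.54, 0.95 and 0.84 in sham. All 3 day 7 libraries exceeded sham, by 1.13, 1.69 and 1.32 within batches (fitted difference 1.47, standard error 0.703, adjusted p = 0.874 from limma). *Vav2*, an exchange factor for small GTPases, was at 1.89, 1.49 and 0.58 at day 7 and -1.16, -0.21 and 0.27 in sham, a difference of 2.16 without overlap. *Marcks*, an actin-binding substrate of protein kinase C, was at 3.33, 3.47 and 3.32 at day 7 and 3.01, 2.86 and 3.12 in sham, without overlap and with a difference of 0.44. Cytoskeletal members were among those that were lower. *Nefl*, the light neurofilament subunit, was at -0.04, -1.40 and 0.27 at day 7 and 2.36, 2.59 and 2.56 in sham. The sham libraries lay close together and all day 7 libraries were below them, with a fitted difference of -3.23 (standard error 1.37, adjusted p = 0.840). *Mapt*, the gene of tau, was at 2.31, 1.64 and 1.49 at day 7 and 2.84, 2.20 and 2.50 in sham, and *Map2*, its dendritic relative, at 1.82, -0.39 and 0.60 at day 7 and 2.02, 1.52 and 1.61 in sham. Both were lower at day 7 in every batch, with fitted differences of -0.87 and -1.32, but their groups overlapped, and that of *Map2* ran from -1.75 to -0.64 with single libraries left out. The other members without overlap, named after their values were seen, had mean levels at day 7 and in sham of 3.74 and 3.46 for *Tmsb4x*, an actin-binding thymosin, 0.92 and 2.21 for *Stmn4*, a stathmin, 2.17 and 2.84 for *Map1b*, a microtubule-associated protein, 0.22 and 1.51 for the tubulin *Tubb3*, and 3.07 and 3.59 for the tubulin *Tuba1a*. *Tmsb4x* was higher at day 7 and the 4 others lower. *Nefl* and *Map2* are also the 2 of 10 pan-neuronal markers with an unadjusted p under 0.05, both lower. The pan-neuronal list as a whole had a median difference of -0.54 (-1.00 to -0.25 over the alternatives). Within batches 1, 2 and 3 it was -0.09, -0.13 and -1.01.

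Among genes with a mean of at least 0 and no component correlation, 391 were higher without overlap and 346 lower. Such genes have the same sign in every batch by construction, so this adds nothing to the overlap. The 12 with the smallest p in each direction were described. *N4bp2l2* (chromosome 5, 150608007 to 150666183, minus strand, GRCm38) was at 2.54, 1.67 and 1.14 at day 7 and -2.88, 0.71 and -1.13 in sham, a difference of 3.62 (standard error 0.727, adjusted p = 0.232 from limma). *Phf14* (chromosome 6, 11907809 to 12081205, plus strand), a PHD finger protein of chromatin, was at 2.64, 3.86 and 2.40 at day 7 and -0.02, 1.13 and 1.45 in sham. Its difference was 2.82 (standard error 0.587, adjusted p = 0.232). *Erh* (chromosome 12, 80634022 to 80644341, minus strand), a small nuclear protein of mRNA processing, was at 2.44, 1.27 and 2.96 at day 7 and -3.21, -1.30 and 1.26 in sham. The day 7 replicate 13 and sham replicate 23 of *Erh* differed by little, while sham replicates 6 and 18 were far lower. *Cnot7* (chromosome 8, 40492540 to 40515847, minus strand), a deadenylase of the CCR4-NOT complex, was at 2.27, 1.96 and 2.05 at day 7 and 0.30, -0.21 and 0.13 in sham. For *Cnot7* the libraries within each group lay close together, and the difference was 2.29 (standard error 0.521, adjusted p = 0.243). *Ifi207*, an interferon-inducible gene, was at 2.08, 2.07 and 1.11 at day 7 and -0.59, -0.97 and -0.57 in sham, and *Kansl3*, of the NSL acetyltransferase complex, at 2.40, 2.39 and 1.41 at day 7 and -0.70, 0.15 and -0.34 in sham. The libraries did not overlap, with differences of 2.52 and 2.56. The others of the 12 were *Cmc1*, a cytochrome c oxidase assembly factor (4.60), *Slc17a5*, the lysosomal sialic acid transporter (4.67), *Crybb1*, a beta crystallin (3.53), *Stoml1*, a stomatin relative (4.95), *Fgfr1op*, a centrosomal protein (4.80), and *Gsap*, the gamma-secretase activating protein (4.14), given as fitted differences. Sham replicate 6 was under -2 in 8 of the 12, against 1 of 12 in each of sham replicates 18 and 23 and 0 of 12 in each day 7 library. The 12 were picked for day 7 values above sham, which favours genes with a low sham group. In all of them except *Phf14*, mean levels were lower in REST cKO sham than in WT sham, WT day 7 and REST cKO day 3. *Ifi207* was at -0.71 in REST cKO sham, 1.89 in WT sham, 1.90 in WT day 7 and 1.61 in REST cKO day 3. In that order *N4bp2l2* was at -1.10, 1.90, 1.13 and 2.03. Whether sham was low or day 7 high was not tested.

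The 12 lower genes had larger adjusted p-values, from 0.726 for *Tle1* to 0.838 for *Atxn10* in limma's test. *Tle1*, a Groucho corepressor, was at -0.74, -2.52 and -0.49 at day 7 and 1.98, 2.00 and 0.98 in sham, a difference of -3.42. *Wiz*, a zinc finger partner of the histone methyltransferases G9a and GLP, was at -2.28, -2.35 and -0.51 at day 7 and 0.95, 1.18 and 2.57 in sham, a difference of -3.47. *Nfu1*, an iron-sulfur cluster scaffold of mitochondria, was at -3.01, -2.16 and 0.67 at day 7 and 1.25, 1.98 and 3.72 in sham. For these 3 genes the values of sham were well above 0 and at least 1 day 7 library was near or under -2, apart from the batch 3 library, which was the highest of the day 7 group. *Ly6c2*, a surface antigen of monocytes, was at 1.18, 2.43 and 1.91 at day 7 and 3.23, 3.74 and 2.55 in sham, a difference of -1.40 (standard error 0.420). *Ntm*, the adhesion molecule neurotrimin, was at 0.86, 0.35 and 1.27 at day 7 and 2.43, 1.97 and 2.19 in sham, without overlap and with a difference of -1.62. *Serf2* was at 2.55, 2.84 and 3.02 at day 7 and 3.31, 3.31 and 3.38 in sham, the most abundant of the 12 and the one with the smallest standard error (0.177, difference -0.54). The others were *Slc25a44*, a mitochondrial carrier of branched-chain amino acids (-2.67), *Cmc2*, another cytochrome c oxidase assembly factor (-2.51), *Hnrnpd*, an RNA-binding protein (-3.01, and -4.44 to -1.78 with single libraries left out), *Nceh1*, a cholesterol ester hydrolase (-3.65), *Aurkaip1*, of the mitochondrial ribosome (-3.27), and *Atxn10*, ataxin 10 (-2.88, and -3.48 to -1.50 likewise). Under -2 were 4 of the 12 in day 7 replicate 2, 6 in replicate 13 and 0 in replicate 26, and 0 in each sham library. Of the 24 genes described in both directions, 5 overlap another annotated gene on their own strand and 10 one on the other strand. How such reads were assigned was not analysed here.

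**Figure D3:**
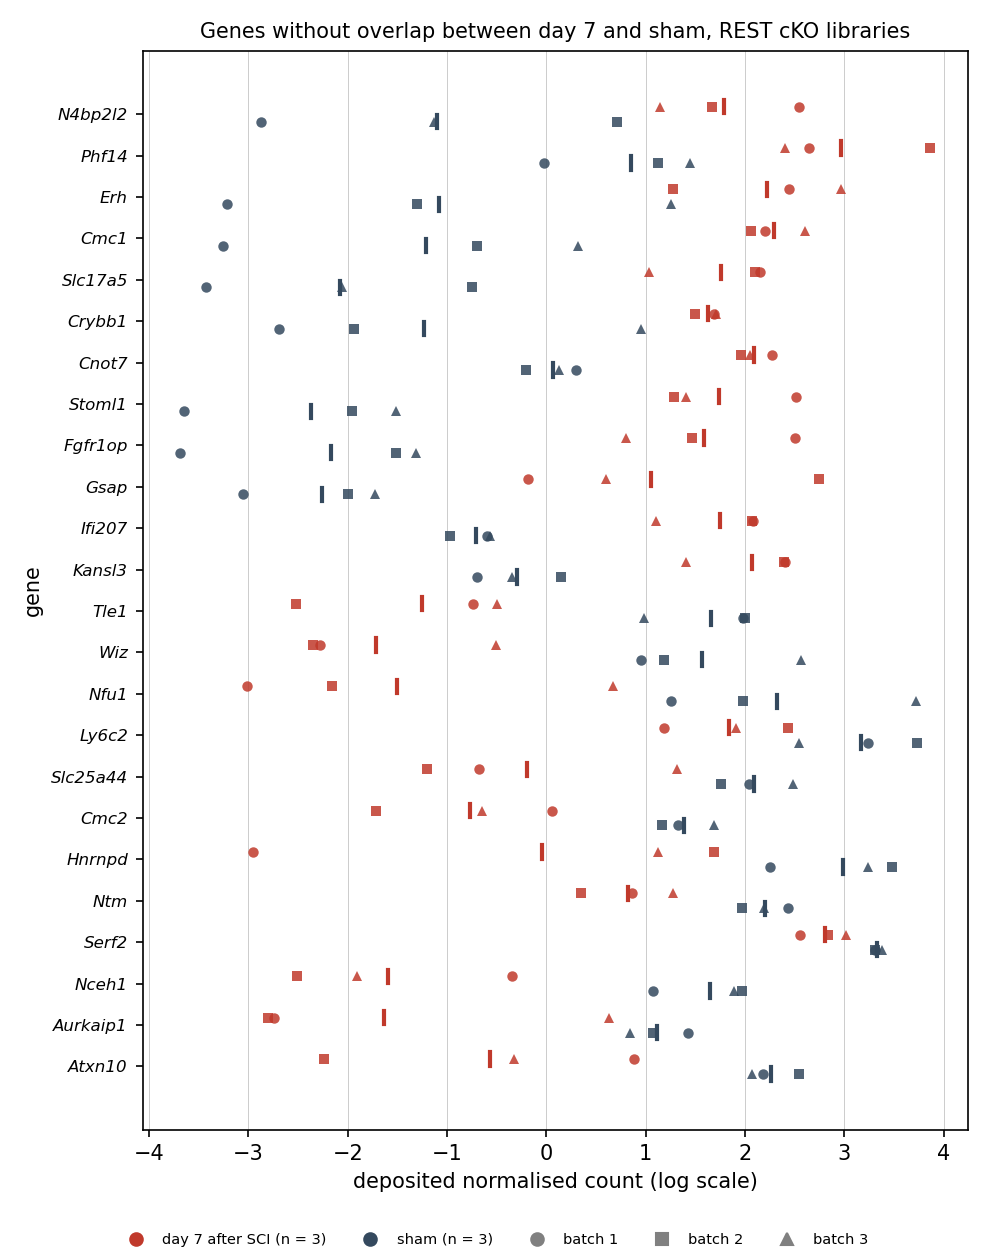
Deposited normalised count (log scale, x axis) of the 12 higher and 12 lower genes (y axis) in each REST cKO library, red for day 7 after SCI and dark blue for sham (n = 3 each), with a shape for each batch and a bar for the group mean. Sham replicate 6, the dark blue circle, lies under -2 in 8 of the 12 upper genes.

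Other transcription factors and the targets and partners of REST were described as lists. Over all genes 3.54% were higher and 2.12% lower without adjustment. Of 32 injury-responsive and growth-limiting TFs 24 were measured, 1 higher and 1 lower without adjustment. Their median difference was -0.08 (-0.21 to -0.03 over the alternatives). *Creb1*, the cAMP-responsive factor, was at 2.24, 2.74 and 2.64 at day 7 and 1.63, 1.18 and 1.64 in sham, without overlap. *Atf5*, a stress-responsive bZIP factor, was at -3.04, 0.75 and -0.26 at day 7 and 1.75, 2.20 and 0.74 in sham, lower in every batch but with overlap by a narrow margin. Of 52 neuronal genes with a known RE1 element 44 were measured, 1 higher and 1 lower without adjustment, and the median difference was -0.03 (-0.27 to 0.19 over the alternatives), with -0.04, 0.68 and -0.87 within batches. The sign thus differed between batches. In this list *Disp2*, a relative of the Hedgehog release protein Dispatched, was higher without adjustment, at 2.08, 3.68 and -0.20 at day 7 and -3.33, -1.30 and 1.84 in sham, and the batches differed in sign. *Nefl*, described above, was the other member, and it was lower. Of 24 genes of REST and its corepressors 21 were measured, and 0 were past an unadjusted p of 0.05, with a median of 0.27 (-0.12 to 0.45 over the alternatives) that also turned sign between batches (-0.20, 0.42 and -0.29). The members with the smallest p were *Smarca4*, the BRG1 ATPase, at -0.55, 1.48 and 0.59 at day 7 and 1.31, 2.18 and 2.64 in sham, and *Cdyl*, a chromodomain corepressor, at -0.06, -2.10 and -0.96 at day 7 and 1.12, 1.51 and -0.67 in sham. Both were lower at day 7 in every batch, with overlap, and *Smarca4* is among the genes that correlate with a component.

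Genes of synapses and excitability were described by family, beside shares of 3.54% higher and 2.12% lower without adjustment over all genes. Of 40 synaptic vesicle and exocytosis genes 0 were past an unadjusted p of 0.05, and their median was 0.02 (-0.14 to 0.11 over the alternatives), with -0.24, 0.39 and -0.38 within batches. Its sign turned in 9 alternatives. *Syn2*, a synapsin, was at 2.50, 2.26 and 1.24 at day 7 and 2.13, -1.00 and -0.63 in sham, and *Napb*, a SNARE disassembly factor, at 2.22, 1.16 and 1.02 at day 7 and 2.43, 2.25 and 2.60 in sham. Day 7 was higher in every batch with overlap for *Syn2* and lower without overlap for *Napb*. Of 27 glutamate and GABA receptor subunits 0 were higher and 1 lower without adjustment. Their median was 0.41, which turned sign without day 7 replicate 13 and among genes without component correlation (-0.09 to 0.81 over the alternatives), with -0.16, 0.54 and -0.02 within batches. Of the 27, 11 correlate with a component, as do 140 of all 9931 genes. *Grin2a*, an NMDA receptor subunit, was at -0.39, -2.03 and 0.29 at day 7 and 1.82, 0.52 and 0.26 in sham, lower without adjustment, although batch 3 showed almost no difference (0.03). The 46 potassium channel symbols, which include the antisense transcript *Kcnq1ot1*, had a median of -0.23 (-0.62 to 0.15 over the alternatives), with 2 higher and 0 lower without adjustment. Without overlap 2 were higher and 3 lower (5.89% and 4.81% over all genes), and 4 were higher and 10 lower in every batch (10.8% and 12.7% over all genes). *Kcnma1*, the BK channel, was at 2.70, 3.28 and 0.95 at day 7 and 1.47, -1.09 and 1.60 in sham, with the opposite sign in batch 3, and *Kcnk6*, a tandem-pore channel, at 2.40, 1.85 and 2.07 at day 7 and 0.18, 0.58 and 1.92 in sham, with a difference of only 0.15 in batch 3. The 19 sodium and calcium channel genes had 2 higher and 0 lower without adjustment and a median of 0.54 (0.29 to 1.17 over the alternatives), with 0.51, 2.04 and -0.21 within batches. *Cacna2d1*, the alpha-2-delta subunit bound by gabapentin, was at 2.47, 3.33 and 1.16 at day 7 and 1.82, -2.55 and -2.27 in sham. It was higher in every batch, with overlap through sham replicate 6, and it correlates with a component. *Cacnb2*, a calcium channel beta subunit, was at 0.01, 0.83 and 1.15 at day 7 and -3.40, -1.21 and -1.53 in sham, without overlap (difference 2.97, 1.88 to 3.73 over the alternatives). Of single identity markers, *Sox5*, a factor of deep-layer neurons, was at 2.02, 0.75 and 0.61 at day 7 and -0.11, -2.07 and -1.68 in sham, and *Vip*, the peptide of an interneuron class, at -2.71, -2.69 and -0.47 at day 7 and 1.71, 3.31 and 0.03 in sham. *Sox5* was higher and *Vip* lower without overlap.

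Guidance cues and trophic factors are read by axons outside the cell. Of 40 guidance ligands and receptors 1 was higher and 3 lower without adjustment (3.54% and 2.12% over all genes). The median was 0.03 (-0.26 to 0.19 over the alternatives) and turned sign in 7 of them, with -0.34, -0.03 and 0.17 within batches. *Efnb2*, a transmembrane ephrin, was at 0.70, 0.33 and -0.47 at day 7 and -3.30, -2.33 and -0.95 in sham. *Efna5*, a membrane-anchored repulsive ephrin, was at -0.25, -2.74 and 0.16 at day 7 and 1.57, 1.78 and 1.02 in sham. *Sema4a*, a class 4 semaphorin, was at 0.06, -0.52 and 1.02 at day 7 and 1.46, 1.85 and 1.55 in sham, and *Rtn4rl1*, a relative of the Nogo receptor, at 0.49, -0.42 and 0.62 at day 7 and 1.81, 2.31 and 1.12 in sham. For all of these the groups did not overlap, *Efnb2* with higher and the others with lower values at day 7. Of 47 trophic factors and receptors 33 were measured, 0 were higher and 3 lower without adjustment, against the same shares of all genes, and the median was -0.30 (-0.48 to -0.04 over the alternatives). *Spp1*, the gene of osteopontin (chromosome 5, 104435118 to 104441050, plus strand, GRCm38), was at -0.50, -1.04 and 0.50 at day 7 and 1.57, 1.62 and 1.49 in sham. Its sham libraries lay within a narrow range and the day 7 libraries were all below them (difference -1.89, standard error 0.668, adjusted p = 0.840 from limma). *Fgf12*, an intracellular FGF that binds sodium channels, was at -0.49, -1.21 and -2.61 at day 7 and 1.88, -0.66 and 2.91 in sham, and *Igf2r*, the receptor that clears IGF2, at -0.59, 1.43 and -0.17 at day 7 and 1.43, 2.01 and 3.65 in sham. Both were lower in every batch, with overlap.

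Tubulins, kinesins and dyneins (52 genes, 1 higher and 2 lower without adjustment, against 3.54% and 2.12% of all genes) had a median of -0.11 (-0.25 to 0.09 over the alternatives). *Tubb5*, a beta tubulin of dividing and growing cells, was at 2.94, 3.20 and 2.94 at day 7 and 2.62, 2.33 and 2.31 in sham, higher without overlap. *Kif3b*, of the kinesin-2 motor, was at -2.45, -2.21 and 2.50 at day 7 and 1.22, 2.18 and 1.34 in sham, and *Kif20a*, a mitotic kinesin, at -3.56, -0.88 and -0.78 at day 7 and 2.20, -0.98 and 1.22 in sham. Both were lower by the fit, with a batch of opposite sign each. Among 29 measured genes of 38 in the stress response and apoptosis list (2 higher and 1 lower without adjustment, median 0.15, -0.10 to 0.43 over the alternatives), *Xiap*, the caspase inhibitor (chromosome X, 42059679 to 42109656, plus strand), was at 2.99, 2.74 and 2.68 at day 7 and 1.91, 1.76 and 1.88 in sham. The libraries were tight in each group and did not overlap, with a difference of 1.24 (standard error 0.548). *Mcl1*, an antiapoptotic BCL2 relative, was at 2.87, 2.49 and 2.78 at day 7 and 3.02, 3.10 and 3.20 in sham, lower without overlap, and *Bbc3*, the proapoptotic gene of PUMA, at 0.23, 1.75 and 1.98 at day 7 and -0.73, -0.40 and 1.76 in sham, higher in every batch with overlap.

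The 83 cytoplasmic ribosomal protein genes had a median of 0.02 (-0.11 to 0.10 over the alternatives), which turned sign in 3 of them, with 0.08, 0.04 and -0.00 within batches. Without adjustment 5 were higher and 0 lower (3.54% and 2.12% over all genes). *Rpl30* was at 3.67, 4.23 and 3.85 at day 7 and 3.46, 3.47 and 3.39 in sham, *Rpl14* at 2.77, 3.41 and 3.30 at day 7 and 2.07, 2.15 and 2.50 in sham, *Rps3* at 3.21, 3.24 and 2.86 at day 7 and 2.85, 2.67 and 2.60 in sham and *Rps27a* at 3.06, 3.78 and 3.24 at day 7 and 2.93, 3.12 and 3.01 in sham. The groups did not overlap except for *Rps27a*, and such genes have many processed pseudogenes, whose reads were not analysed here. Of 81 oxidative phosphorylation subunits 2 were higher and 0 lower without adjustment, with a median of -0.14 (-0.27 to -0.06 over the alternatives). Without overlap 3 were higher and 5 lower (5.89% and 4.81% over all genes), the latter being *Atp5d*, *Cox5b*, *Cox8a*, *Uqcrb* and *Uqcrfs1*, named after their values were seen, and 7 were higher and 13 lower in every batch (10.8% and 12.7% over all genes). *Ndufc1*, of complex I, was at 2.49, 2.46 and 2.24 at day 7 and 1.27, 1.89 and 1.10 in sham, and *Cox5a*, of complex IV, at 2.70, 2.87 and 2.75 at day 7 and 2.04, 2.23 and 2.04 in sham, both without overlap. Among 63 chaperones (median -0.03, -0.17 to 0.10 over the alternatives) 3 were higher and 0 lower without adjustment. They were *Dnajc5*, the vesicle chaperone CSP alpha, at 2.65, 2.43 and 2.67 at day 7 and 1.46, 0.64 and 1.55 in sham, *Cct2*, of the chaperonin that folds actin and tubulin, at 2.81, 2.99 and 2.27 at day 7 and 1.36, 1.58 and 1.82 in sham, and *Hspd1*, mitochondrial HSP60, at 1.47, 2.00 and 2.15 at day 7 and 0.76, 0.49 and 1.64 in sham. *Dnajc5* and *Cct2* did not overlap between the groups, whereas *Hspd1* did. Of 37 proteasome genes (1 higher and 0 lower without adjustment, median -0.19, -0.31 to 0.05 over the alternatives) *Psmb9*, an interferon-induced subunit of the immunoproteasome, was at 1.75, 1.87 and 2.07 at day 7 and -0.03, 0.44 and 1.92 in sham, with sham replicate 23 inside the range of day 7. In the cholesterol list (26 of 29, 1 higher and 0 lower without adjustment, median -0.05, -0.20 to 0.26 over the alternatives) *Hmgcs1*, which makes HMG-CoA, was at 1.82, 3.21 and 2.55 at day 7 and 1.73, -0.83 and 1.72 in sham, without overlap. Day 7 replicate 2 and sham replicate 6 differed by only 0.09.

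Among 78 cAMP and MAP kinase genes 4 were higher and 1 lower without adjustment (3.54% and 2.12% over all genes). The median was 0.13 (-0.09 to 0.23 over the alternatives) and turned sign in 5 of them, with 0.01, 0.05 and -0.59 within batches. Without overlap 3 were higher and 5 lower (5.89% and 4.81% over all genes), and 5 were higher and 16 lower in every batch (10.8% and 12.7%). *Map2k3*, a kinase upstream of p38, was at 2.84, 2.87 and 2.69 at day 7 and 1.19, 1.17 and 1.25 in sham. Each group was tight and they did not overlap (difference 1.47, standard error 0.608, adjusted p = 0.840 from limma). *Mapk11*, a p38 isoform, was at 2.53, -1.41 and 1.40 at day 7 and -3.41, -0.92 and -0.87 in sham, *Map4k3*, a kinase of the JNK route, at 2.79, 3.90 and -0.61 at day 7 and -3.01, 0.17 and 0.21 in sham, and *Pde1a*, a calmodulin-dependent phosphodiesterase, at 1.27, 2.05 and 1.91 at day 7 and 1.88, -1.75 and -0.63 in sham. All 3 overlapped between the groups and had a batch of opposite sign. *Hras* was at -0.69, -0.87 and -0.10 at day 7 and 1.34, -0.01 and 3.29 in sham, lower without overlap. It was the lower member.

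Whether the response differed between the genotypes was tested as day 7 minus sham in REST cKO minus the same difference in WT. In limma's test 2 of 9931 genes (0.0201%) had an adjusted p under 0.1, and 427 were positive and 204 negative without adjustment. The positive share of these was 67.7%, against 50.3% with quantile normalization and 52.1% with median centring, and the median over all genes went from 0.19 to -0.02 and -0.05. *Phf14* was at 2.41, 2.44, 1.40 and 1.74 in WT sham replicates 3, 10, 14 and 17 and at 0.61, 0.62 and 1.21 in WT day 7 replicates 4, 7 and 12. It was lower at day 7 in WT and higher in REST cKO, with no overlap in either, and the difference between the responses was 4.39 (standard error 0.827, adjusted p = 0.0780 from limma). *Rxrb*, a retinoid X receptor and dimer partner of many nuclear receptors, was at 1.93, 1.96 and 1.16 at day 7 and -3.53, -2.23 and -0.46 in sham in REST cKO. In WT it was at 1.43, 1.84, -0.57 and 0.09 in sham and at -3.55, -3.24 and -2.68 at day 7. The WT libraries at day 7 and 2 of the 3 REST cKO sham libraries were under -2, and the difference between the responses was 8.83 (standard error 1.61, adjusted p = 0.0780 from limma). The adjusted p of *Phf14* ran from 0.0291 to 0.359 over the alternatives and that of *Rxrb* from 0.0291 to 0.359, and the count was 0 with a term for batch or without the components. It was also 0 without REST cKO day 7 replicate 2 or 26, WT sham replicate 3, 10 or 17 or WT day 7 replicate 12. Without REST cKO day 7 replicate 13 only *Rpl3-ps1* passed, without WT day 7 replicate 4 *Kansl3* and *C1rb*, and without REST cKO sham replicate 6 *Cacna2d1*, *Urod* and *Fam210a*, so neither named gene did. Without WT day 7 replicate 7 the count was 6, with both among them. All WT mice at day 7 were female and all REST cKO mice of both groups male, so a response that differs by sex and one that differs by genotype cannot be told apart. An additive term for sex can be fitted, because other groups held both sexes. With this term, an alternative chosen after seeing the data, the count was 0 (adjusted p = 0.105 for *Rxrb* and 0.126 for *Phf14* from limma).

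The growth-associated genes with an unadjusted p under 0.05 at day 7 in limma's test were set beside REST cKO at day 3 (4 libraries). Values are mean levels with SD, and the comparison at day 3 shares the sham libraries. At day 3 there were 3 female mice and 1 male, and all sham and day 7 mice were male. Day and sex were thus unbalanced in this series, and the mean levels were not adjusted for sex. In the order sham, day 3 and day 7, *Gap43* was at 1.11 ± 0.376, 1.62 ± 1.05 and 2.49 ± 0.288. *Vav2* was at -0.37 ± 0.729, 0.61 ± 0.561 and 1.32 ± 0.672, and *Marcks* at 3.00 ± 0.131, 3.33 ± 0.254 and 3.37 ± 0.0851. These are the members that were higher at day 7 with an unadjusted p under 0.05. *Nefl* was at 2.51 ± 0.123, -0.62 ± 0.545 and -0.39 ± 0.887, *Mapt* at 2.51 ± 0.322, 1.79 ± 0.0638 and 1.82 ± 0.434 and *Map2* at 1.72 ± 0.268, 1.37 ± 0.413 and 0.68 ± 1.11. Core TFs at day 3 and day 7 were at 0.65 and 0.53 (*Smad1*), 0.82 and 1.08 (*Sox11*), 1.14 and 1.22 (*Atf3*). *Stat3* was at 3.22 and 3.18, and *Jun* at 3.36 and 2.91. The difference between day 3 and day 7 was not tested. In limma's test of day 3 against the same sham libraries, 2 of 9931 genes had an adjusted p under 0.1, against 0 at day 7. *N4bp2l2* was among them (difference 3.93, standard error 0.702, adjusted p = 0.0751 from limma). In WT, sham (4 libraries) and day 7 (3 libraries) had levels of -0.03 ± 0.502 and 0.81 ± 0.427 for *Gap43*, 1.42 ± 0.587 and -0.65 ± 0.0322 for *Vav2* and 3.32 ± 0.123 and 3.43 ± 0.222 for *Marcks*. *Vav2* was thus lower at day 7 in WT and higher in REST cKO, without overlap in either, and its response passed for injury by genotype only without the trend, of the alternatives. The WT levels were -0.22 ± 2.15 and -0.81 ± 2.50 for *Nefl*, 1.38 ± 0.269 and 1.54 ± 0.332 for *Mapt* and 1.17 ± 0.822 and 1.63 ± 0.141 for *Map2*. *Nefl* thus varied more among the WT libraries of either group than among the REST cKO libraries at day 7 or after sham surgery.

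RE1 elements were looked for near the starts of genes, since REST is the deleted factor. RefSeq promoter windows of GRCm38.p6, of the same length for every gene, were matched by symbol for 7748 of the 9931 genes, and both strands were searched. In all, 5 spellings of RE1, each with 2 free bases in its middle, and 1 each of the CRE and AP-1 elements were searched. They were chosen, and the RE1 spellings widened, after the values had been seen, so nothing is read from their counts. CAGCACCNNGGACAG was in 0.0365% of all 32851 windows and 3 measured genes, and CAGCACCNNGGA in 0.186% and 18. AGCACCNNGGACA was in 0.0670% and 9, AGCACCNNGGAC in 0.128% and 16, and GCACCNNGGAC in 0.377% and 46. These spellings share letters, so their genes overlap. The median differences were -0.83, 0.20, -0.41, 0.10 and 0.07 in the same order, and 0, 2, 0, 1 and 4 members were higher and 0, 0, 0, 0 and 1 lower without adjustment. The CRE palindrome TGACGTCA was in 1.79% of windows and 274 genes (median -0.02, 17 higher and 4 lower) and the AP-1 form TGANTCA in 7.81% and 500 (median 0.09, 10 higher and 15 lower). Of all genes 3.54% were higher and 2.12% lower, and no motif's genes passed the threshold. A match is a description of the letters and not of binding. The 9 genes with AGCACCNNGGACA are shown so that both sides of the element can be seen, 30 bases each, 5′ to 3′ on the strand of the gene, with the match to the motif or its reverse complement in capitals.
*Dner* (chr1:84696347-84696376, minus strand): gccggttcAGCACCAAGGACAagggccccg
*Eif5* (chr12:111537853-111537882, plus strand): cacagagaAGCACCGTGGACAtagccggcc
*Fam163b* (chr2:27142557-27142586, minus strand): ccagcgtcAGCACCAGGGACAgttcctcgc
*Gad2* (chr2:22622156-22622185, plus strand): gctgtggtAGCACCCTGGACAgcgcgttcc
*Gria2* (chr3:80802983-80803012, minus strand): caaagcgcTGTCCGCGGTGCTaaaatcgaa
*Hrh3* (chr2:180104568-180104597, minus strand): cgcggcgcTGTCCGTGGTGCTgcccgcgcc
*Osbp2* (chr11:3774785-3774814, minus strand): ctggccgcTGTCCGCGGTGCTgaagcggtg
*Robo2* (chr16:75447348-75447377, minus strand): ttacccttAGCACCACGGACAgagcactaa
*Scamp5* (chr9:57468190-57468219, minus strand): gaatatttAGCACCACGGACAgctcctgca
The mean level of *Dner*, a neuronal Notch ligand, was 2.21 at day 7 and 1.39 in sham. The mean level of *Eif5*, a translation initiation factor, was 1.82 at day 7 and 2.80 in sham. The mean level of *Fam163b* was 1.13 at day 7 and 1.58 in sham. The mean level of *Gad2*, a GABA-synthesizing enzyme, was 1.04 at day 7 and 0.98 in sham. The mean level of *Gria2*, an AMPA receptor subunit, was 2.52 at day 7 and 1.90 in sham. *Hrh3*, a histamine receptor, had mean levels of -0.97 and 0.01. *Osbp2*, an oxysterol-binding protein, had mean levels of 0.82 and 1.06. *Robo2*, a Slit receptor, had mean levels of 0.04 and -2.40. *Scamp5*, a vesicle membrane protein, had mean levels of 1.12 and 1.50. No fitted difference or test is given for these genes singly, since the spelling was chosen after their values were seen. Their means are given without the spread between libraries.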

How the data were processed

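Libraries were made with a 3′ mRNA kit. The authors used STAR (mm10), Salmon and tximport, scaled libraries by the geometric mean of DESeq2, removed batch effects with RUV, dropped genes without counts in most samples and regressed out sequencing components. The deposited values are called log2 counts by the authors. The log fold changes, p-values and adjusted p-values of their own comparisons in the table were not used, and 24 rows without a symbol were left out.

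Limma 3.58.1 (R 4.3.3) was fitted with 8 group means and 2 sequencing components over 25 libraries, with a trend and Benjamini-Hochberg adjustment over 9931 genes. Positions are from GENCODE M21 (9930 genes found). Tables used Python 3.11.15. Members and lists (19 pathway, 9 cell type) were chosen with earlier results of these data known. Named genes were *Rest*, the core TFs, genes past the threshold here or for injury by genotype, 12 genes in each direction by p without overlap, with a mean of at least 0, no component correlation above 1e-05 and an established symbol, up to 4 members of a pathway list in each direction with an unadjusted p under 0.05 (otherwise the 2 with the smallest p), and of each cell type list the most abundant gene and those with an unadjusted p under 0.05. Genes of the sequence search and those passing in single alternatives were chosen after their values were seen. Alternatives changed components, libraries, batch, weights, low values, trend, scaling, genes tested and threshold, and left out each library. A term for sex was added after the data were seen.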

Additional observations from a re-analysis of the deposited data

Results flagged for a closer look

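The response to injury differed between REST cKO and WT libraries in the test of that difference for *Rxrb* (8.83 on the deposited log scale) and *Phf14* (4.39), as described above. Neither gene kept its adjusted p under 0.1 in every alternative. *Rxrb* no longer passed in 15 of its alternatives and *Phf14* in 16, among them a term for sex, which was added after seeing the data. Responses that differ by sex and by genotype cannot be told apart, since the compared mice were male in REST cKO and female at day 7 in WT.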

How the results depend on the processing

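The count of genes past limma's adjusted threshold at day 7 was 6 with library weights, from 0 to 7 with single libraries left out, and 0 in the other alternatives (563 at an unadjusted p under 0.05 as reported). The genes higher without adjustment were 227 with only the 6 libraries, a batch block and no components, and 227 among genes with a mean of at least 0, where fewer genes were tested, and the lower ones 131 among the latter. With single libraries left out the higher ones ran from 258 to 452 and the lower ones from 165 to 258. For injury by genotype the count of 2 became 0 without components, with a batch term, with a term for sex (chosen after seeing the data), among genes with a mean of at least 0, with median centring and at an adjusted p under 0.05, 1 with quantile normalization, 1 with only the compared libraries and no components (*Igkc*, with a negative difference), and 4 with library weights or no trend. It ran from 0 to 6 with single libraries left out. The cause was not tested.

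The share of higher genes went from 62.5% to 52.1% with quantile normalization and 50.1% with median centring. Of 84 genes with a reported difference, 1 turned sign. *Jun* went to 0.32 in each of the 3 alternatives without components (all libraries, the 6 libraries, and these with a batch block), which give the same difference of means, to 0.28 without day 7 replicate 13 and to 0.10 without sham replicate 23, and its lowest value with a library left out was -0.30, without sham replicate 6. Libraries of 1 batch did not deviate together (correlations of -0.11, -0.23 and -0.15 across genes, which are not independent replicates). The authors had removed batch effects from these values, so the correlations cannot show whether batches differed before that step. The medians of 13 of 19 pathway lists and 5 of 9 cell type lists turned sign in at least 1 alternative. The depth of each library is unknown, and genes of low abundance had the largest standard errors. No paired analysis by replicate number was possible because the groups share no number.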
